A study of Mus musculus with 94 samples.

Results

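L1Md_Gf is a subfamily of mouse LINE-1 (L1) retrotransposons, and the transcripts assigned to its elements were followed in 2 brain regions, cortex and hippocampus. The members were chosen by name alone: every L1 element of the count table whose name before the copy number is exactly L1Md_Gf, which gave 800 of 430083 elements. The mice were Ts65Dn (TS), which carry a segmental trisomy and serve as a model of Down syndrome, or wild-type (WT) littermates, and each genotype was split into mice given lamivudine, a nucleoside analog that inhibits reverse transcriptase (-t), and mice given none (-nt). All were males, 3 to 4 months old in the experiments, from B6EiC4Sn.BLiA-Ts(1716)65Dn/DnJ females and hybrid B6C3F1/OlaHsd males, so that all groups had a mixed genetic background. Lamivudine was given in the drinking water at 3 mg/kg for 4 months, and the non-treated mice had water. The 94 libraries were made from ribosomal RNA-depleted total RNA. Cortex had 48 (WT-nt 9, TS-nt 9, WT-t 17, TS-t 13) and hippocampus had 46 (WT-nt 8, TS-nt 8, WT-t 17, TS-t 13). The 48 mice were numbered 1 to 48 here, and 46 of them had a library of each region. The table holds L1 elements only, so that the tissue labels could not be checked against marker genes. Each library carries the label of 1 mouse, but the study's methods also mention pools, and the p-values measure the spread between these libraries.

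L1 elements copy themselves through an RNA that encodes an RNA-binding protein and a protein with endonuclease and reverse transcriptase activity. The A, Tf and Gf subfamilies of the mouse are the young ones, in which some copies are still able to move, and each Gf promoter is built of repeated monomers that set the subfamily apart from A and Tf. Young copies differ from each other by few bases, so a short read often matches several of them. The authors kept up to 5 alignments per read and assigned each read to its most probable copy with Telescope. A count on a single member is thus an assignment among near-identical copies, and the sum over the subfamily depends less on it. Positions and sequences of the members were not used here, so whether a member is full-length, intact or inside a gene is not described.

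Most L1Md_Gf members had few or no counts, and a small number held most of the signal. Of the 800 members, 246 had no count in any library and 554 had at least 1. In cortex 509 members had a count, 248 had at least 10 over the 48 libraries and 22 had at least 100. In hippocampus the numbers were 386, 127 and 13. The members together held 17056 counts in cortex and 10934 in hippocampus, which were 0.102% and 0.0898% of all L1 counts. In cortex 14 members accounted for 50% of the L1Md_Gf counts, and in hippocampus 5 members did. The cortex number rested on 1 library: without that of mouse 24, described below, 9 members accounted for 50% of 14502 counts, and 451 members had a count. L1Md_Gf_dup993 alone held 25.0% of them in cortex and 33.9% in hippocampus, and the 10 members with most counts held 45.996% and 60.8%. Without mouse 24 the cortex shares were 29.4% and 53.2%. The 10 members with the highest mean level were nearly the same in both tissues, with 9 shared: only L1Md_Gf_dup974 was among them in cortex and not in hippocampus, and only L1Md_Gf_dup1050 in hippocampus and not in cortex.

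**Figure D1:**
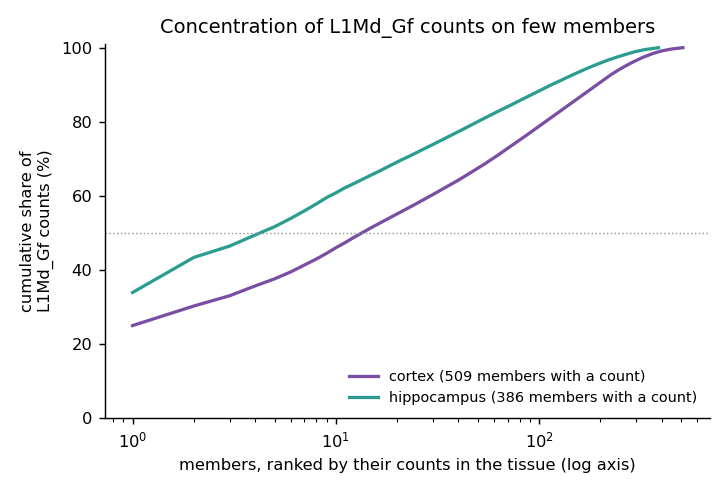
Cumulative share of L1Md_Gf counts (percent, y axis) held by the members ranked by their counts in a tissue (x axis, log scale), for cortex and hippocampus. The first member holds 25.0% in cortex and 33.9% in hippocampus, and the dotted line at 50% is crossed at 14 and 5 members, and at 9 in cortex without the library of mouse 24, which is not drawn.

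Beside the other L1Md subfamilies, L1Md_Gf is small, and its counts per element were above those of L1Md_A alone. It had 21.3 counts per element in cortex and 13.7 in hippocampus, against 20.7 and 13.2 for the 13369 L1Md_A elements. L1Md_T had 30.6 and 14.2 (20184 elements), L1Md_F2 24.8 and 16.2 (44955), L1Md_F 23.5 and 15.2 (2105) and L1Md_F3 21.5 and 14.7 (10149). Without the cortex library of mouse 24, which is described below, L1Md_Gf had 18.1 in cortex, the lowest of these subfamilies, and L1Md_A 18.7. In cortex 63.6% of the L1Md_Gf members had a count. The shares were 73.4% for L1Md_T, 73.1% for L1Md_A, 65.8% for L1Md_F2, 64.3% for L1Md_F and 61.8% for L1Md_F3. In hippocampus 48.25% of the L1Md_Gf members had a count, and the shares in the same order were 64.5%, 62.4%, 48.7%, 47.5% and 45.5%. The share held by the first element was 24.98% for L1Md_Gf in cortex, 3.03% for L1Md_A and 31.8% for L1Md_T, and in hippocampus it was 33.9%, 2.70% and 4.62%. These values are counts per element, not per length, and were not tested.

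Levels are given below as CPM, counts per 1000000 L1 counts of the library, which is a share of L1 counts and not of the transcriptome. Libraries held between 131 and 2554 L1Md_Gf counts in cortex, with a median of 299.5, out of 186545 to 1165192 L1 counts. Hippocampus libraries held 132 to 455, with a median of 230.5, out of 178454 to 403378. With 0 counts of a member in a library, a level of up to 3 counts cannot be told from 0, which is between 2.57 and 16.1 CPM in cortex and between 7.44 and 16.8 CPM in hippocampus. These limits, and the interval given for a single library below, cover counting error only. Values given as ± are standard deviations (SD) between libraries.

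One cortex library stood apart from the others. The WT-nt library of mouse 24 had the most L1 counts, 1165192, and 2554 of them were on L1Md_Gf, whereas the highest of the other cortex libraries had 786. This was 2192 CPM (95% Wilson interval 2109 to 2278), 2.43 times the cortex median. Counts fell on 220 members, against at most 144 in any other cortex library, and 58 of these members had no count in any other cortex library. They were spread widely: its first member, L1Md_Gf_dup343, held 86 counts or 3.37% of the L1Md_Gf counts of the library, and its 10 first members held 21.8%. The member that leads elsewhere, L1Md_Gf_dup993, had 0 counts, which allows a level of up to 2.57 CPM. The hippocampus library of the same mouse had 199 L1Md_Gf counts (828 CPM) on 27 members, with 94 counts on L1Md_Gf_dup993. The cortex library of mouse 24 was also the highest of the cortex libraries in CPM for L1Md_A, L1Md_F, L1Md_F2 and L1Md_F3, at 1.497, 1.58, 1.37 and 1.48 times their medians, and the third highest for L1Md_T, at 3.17 times. Another cortex library, of the WT-t mouse 1, had a count on only 3168 L1 elements, and 16 L1Md_Gf members. Values without them are given beside many of the results they moved.

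In cortex the summed L1Md_Gf level of the 4 groups overlapped, and only the library of mouse 24 lay above 1298 CPM. WT-nt libraries ranged from 795 to 2192 CPM with a median of 921 (n = 9), and from 795 to 1298 with a median of 898 without mouse 24 (n = 8). WT-t libraries ranged from 458 to 1082 (median 866, n = 17), TS-nt from 835 to 1095 (median 960.1, n = 9) and TS-t from 774 to 1225 (median 955, n = 13). All 4 ranges overlapped, and the lowest value was that of mouse 1. As mean ± SD these were 1073 ± 444, 846 ± 149, 965 ± 89.4 and 979 ± 143 CPM, and the WT-nt mean without mouse 24 was 934 ± 156.

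**Figure D2:**
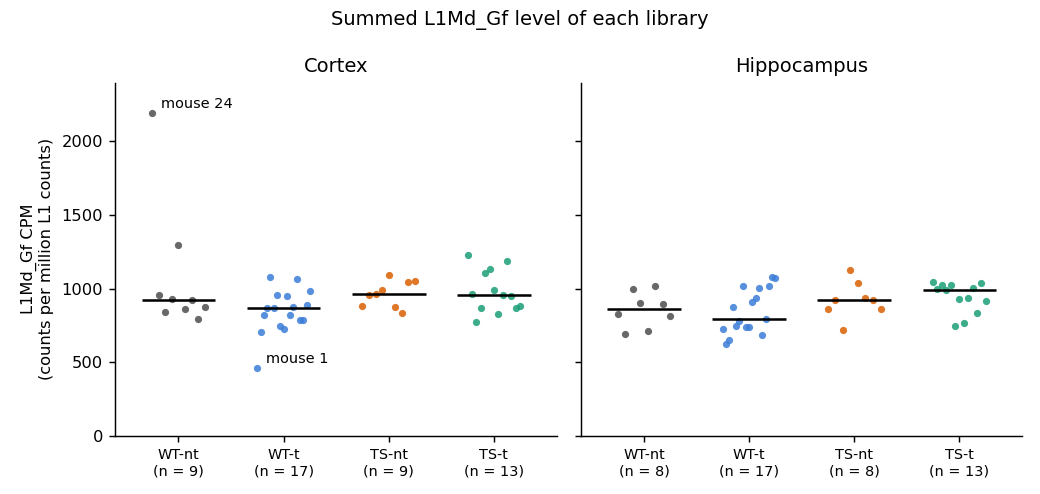
Summed L1Md_Gf level (y axis, CPM) of each library in cortex (left) and hippocampus (right) by group, with a line at the group median. Each point is a library, the cortex library of mouse 24 is at 2192 CPM and that of mouse 1 at 458 CPM, and all other libraries lie between 625.4 and 1298 CPM.

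The genotype and treatment comparisons asked whether trisomy and lamivudine went along with another L1Md_Gf level. The sum was tested as 1 of 133 subfamilies with edgeR's quasi-likelihood test, and it was not called at an adjusted p-value below 0.1 in any cortex comparison. In TS-nt vs. WT-nt the log2 fold change was -0.33 ± 0.17 (SE; adjusted p = 0.247), where 0.752% of the subfamilies were called. Between TS-t and WT-nt it was -0.22 ± 0.16 (adjusted p = 0.777), again with 0.752% called. Both of these values changed sign without the cortex library of mouse 24, to 0.05 and 0.14, and the group medians had also been higher in TS-nt and TS-t than in WT-nt.

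Treatment of WT mice gave the lowest p-value of the sum within a tissue when all libraries were kept, and not without mouse 24. In WT-t vs. WT-nt the log2 fold change was -0.45 ± 0.15 with an unadjusted p of 0.00403 and an adjusted p of 0.268, and 0% of the subfamilies were called. Without mouse 24 the value was -0.07 (adjusted p = 0.988). In TS-t vs. TS-nt it was 0.11 ± 0.16 (adjusted p = 0.818), with a 95% interval from -0.20 to 0.42. The interaction of treatment and genotype was 0.56 ± 0.22 (adjusted p = 0.179) and 0.15 without mouse 24 (adjusted p = 0.666). TS-t vs. WT-t gave 0.23 ± 0.14 (unadjusted p = 0.0976, adjusted p = 0.765). Without mouse 24 it was 0.20 (unadjusted p = 0.00993, adjusted p = 0.293), then the lowest unadjusted p of the cortex comparisons. The comparisons with WT-nt share the same 9 libraries, so they are not independent of each other. With normalization factors from the single elements in place of the subfamily sums, the value of WT-t vs. WT-nt was -0.74 (adjusted p = 0.0415). That setting was not run without mouse 24, and the share of subfamilies called under it was not recorded.

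In cortex the levels of treated mice were compared by animal label. Labels begin with 18, 19 or 20, all non-treated mice have labels beginning with 20, and what the number stands for is not given in the sources used here, so label and treatment cannot be told apart outside the treated mice that share it. The WT-t medians were 843 CPM for 6 mice with label 18, 848 for 8 with label 19 and 887 for 3 with label 20, and the TS-t medians were 915 for 4 mice with label 19 and 952 for 8 with label 20. The only TS-t mouse with label 18, mouse 2, was at 1225 CPM, the highest of the treated mice in cortex. Against the non-treated mice, treated mice with label 20 gave log2 fold changes of -0.39 in WT-t vs. WT-nt and -0.0029 in TS-t vs. TS-nt. Without the library of mouse 24 these were -0.07 and -0.0043.

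In hippocampus the L1Md_Gf sum was close between groups and no library was far from the others on the first principal component. The ranges were 691 to 1015 CPM in WT-nt (median 863, n = 8), 625.4 to 1081 in WT-t (median 793, n = 17), 721 to 1128 in TS-nt (median 925, n = 8) and 744 to 1045 in TS-t (median 989, n = 13), and all overlapped. The means ± SD were 858 ± 119, 847 ± 152, 924 ± 122 and 942 ± 102 CPM. TS-nt vs. WT-nt gave a log2 fold change of 0.11 ± 0.10 (adjusted p = 0.833, where 1.52% of the 132 subfamilies were called), with a 95% interval from -0.09 to 0.31. TS-t vs. TS-nt gave 0.0093 ± 0.0916 (adjusted p = 0.963) and WT-t vs. WT-nt -0.03 ± 0.09 (adjusted p = 0.921), both with 0% called. These intervals reached from -0.17 to 0.19 and from -0.20 to 0.14. TS-t vs. WT-nt gave 0.12 ± 0.09 (adjusted p = 0.970, with 1.52% called), TS-t vs. WT-t 0.15 ± 0.08 (adjusted p = 0.463) and the interaction 0.04 ± 0.13 (adjusted p = 0.924).

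The hippocampus values of treated mice differed by animal label, with the labels in another order in WT-t than in TS-t, and this was not tested. The 3 WT-t mice with label 20 had 1014, 1072 and 1081 CPM, above all 6 WT-t mice with label 18, which ranged from 625.4 to 877 CPM, while the 8 with label 19 ranged from 682 to 1015 CPM. TS-t mice had 989 to 1025 CPM in 4 mice with label 19 and 744 to 1040.1 CPM in 8 with label 20, and the only one with label 18, mouse 2, had 1044.7 CPM, the highest of the group. When only treated mice with label 20 were kept, WT-t vs. WT-nt was 0.27, TS-t vs. TS-nt -0.08 and TS-t vs. WT-t -0.24 on the log2 scale, so that the direction of all 3 turned, and none was called (unadjusted p = 0.036, 0.379 and 0.0596, adjusted p = 0.999, 0.93 and 0.982). These values rest on 3 WT-t mice.

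**Figure D3:**
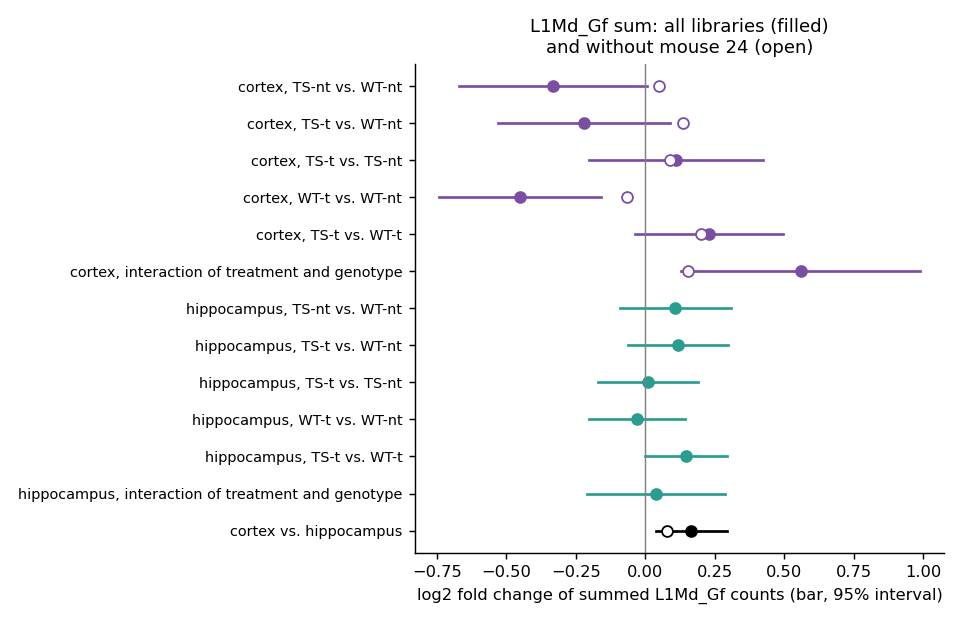
Log2 fold change of the summed L1Md_Gf counts (x axis) in each comparison, with the 95% interval of the edgeR fit as a bar, for cortex, hippocampus and the comparison of tissues. Filled points are all libraries and open points are without mouse 24, where the 3 cortex comparisons with WT-nt move to between -0.07 and 0.14.

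Single members could be tested only where their counts were high enough, which left 8 of the 800 members in cortex and 5 in hippocampus, among 5416 and 4238 elements tested. A member that passed this filter may have passed through 1 group, and the other 792 and 795 members were not tested. None of the tested members was called at an adjusted p-value below 0.1 in any of the 12 comparisons within a tissue by edgeR, nor by DESeq2. By edgeR, the share of all elements called was 0% in the 6 cortex comparisons. In hippocampus it was 0.0708% for TS-nt and 0.0472% for TS-t against WT-nt and 0% in the others. By DESeq2 the cortex shares were also 0%. The DESeq2 shares in hippocampus were 0.0708% for TS-nt and 0.425% for TS-t against WT-nt. They were 0.283% for genotype in treated mice, 0.0236% for lamivudine in TS mice and 0% in the others. In the edgeR fits only L1Md_Gf_dup885 had an unadjusted p below 0.05, in the cortex interaction. This changed without mouse 24, where L1Md_Gf_dup993 in TS-t vs. WT-t (log2 0.48, unadjusted p = 0.0447) and L1Md_Gf_dup868 in WT-t vs. WT-nt (log2 -1.40, unadjusted p = 0.0494) were below 0.05 and L1Md_Gf_dup885 was not (unadjusted p = 0.0653). None of these was called. The median log2 fold change of the tested members was -0.03 in cortex TS-nt vs. WT-nt, where the median of all tested elements was 0.07, and 0.31 in TS-t vs. WT-t, where it was 0.09. In hippocampus the medians of the 5 members lay between -0.11 and 0.16. In all, 65 differences of group means of the tested members were also compared by permutation, and 5 had a p below 0.05, of which the smallest adjusted p was 0.566.

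The most abundant member, L1Md_Gf_dup993, was counted in all 46 hippocampus libraries and in 47 of 48 cortex libraries. In cortex its level ranged from 0 to 385 CPM in WT-nt (median 249, n = 9), from 3.11 to 454 in WT-t (median 266, n = 17), from 161 to 446 in TS-nt (median 282, n = 9) and from 192 to 538 in TS-t (median 319, n = 13). In hippocampus it ranged from 225 to 391 in WT-nt (median 273, n = 8), from 164 to 419 in WT-t (median 293, n = 17), from 255 to 429 in TS-nt (median 343, n = 8) and from 158 to 483 in TS-t (median 382, n = 13). The medians were higher in both TS groups than in both WT groups in each tissue, but all ranges overlapped. In cortex TS-t vs. WT-t the log2 fold change was 0.48 ± 0.28 (unadjusted p = 0.0854, adjusted p = 0.999) and the means were 326 and 251 CPM (permutation p = 0.0449, adjusted p = 0.566). TS-nt vs. WT-nt gave 0.33 ± 0.36 in cortex and 0.17 ± 0.19 in hippocampus (adjusted p = 0.999 and 0.998), and 0.16 in cortex without mouse 24. The 2 cortex libraries in which this member was at or near 0 were those of mouse 24, with 0 counts, and of mouse 1, with 1 count, whose hippocampus libraries had 94 and 86 counts (391 and 394 CPM). As a share of the L1Md_Gf counts of a library, L1Md_Gf_dup993 was between 0.680% and 54.3% in the cortex libraries other than that of mouse 24 (median 29.7%) and between 15.4% and 57.4% in hippocampus (median 33.4%).

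L1Md_Gf_dup1031 was second in both tissues, with 899 counts in cortex and 1035 in hippocampus. Its cortex medians were 49.1 CPM in WT-nt (17.2 to 83.5), 48.3 in WT-t (0 to 125), 34.5 in TS-nt (0 to 107) and 49.4 in TS-t (0 to 98.2). Its hippocampus medians were 85.9 in WT-nt (41.6 to 137), 58.5 in WT-t (16.8 to 211), 76.0 in TS-nt (0 to 186) and 70.9 in TS-t (11.7 to 181). All groups overlapped, and its log2 fold changes in the 12 comparisons were all within 0.26 of 0, with no unadjusted p under 0.69. The order of the first 2 members did not change with the group, while those that followed, L1Md_Gf_dup238, L1Md_Gf_dup467, L1Md_Gf_dup885 and L1Md_Gf_dup358, lay close together. In cortex their means over all 48 libraries were 28.5 ± 20.3, 29.02 ± 37.6, 19.1 ± 12.9 and 20.6 ± 16.8 CPM and in hippocampus 26.1 ± 21.4, 16.7 ± 16.5, 27.1 ± 21.1 and 19.5 ± 18.8 CPM, so that their order is within the spread between libraries.

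L1Md_Gf_dup885 had the lowest p-value among the members tested within a tissue when all libraries were kept, and not without mouse 24. In cortex it ranged from 6.94 to 45.9 CPM in WT-nt (median 24.9), from 0 to 36.4 in WT-t (median 14.5), from 0 to 28.2 in TS-nt (median 15.4) and from 0 to 44.7 in TS-t (median 25.0). Its medians were lower in WT-t and TS-nt than in the other groups, and all ranges overlapped. The interaction of treatment and genotype was 1.87 ± 0.91 on the log2 scale (unadjusted p = 0.0423, adjusted p = 1), and 1.69 without mouse 24 (unadjusted p = 0.0653). The means of WT-t and WT-nt were 14.4 and 27.05 CPM (exact permutation p = 0.0211, adjusted p = 0.566), and the mean of TS-nt was 14.5 CPM (exact permutation p against WT-nt = 0.0307, adjusted p = 0.566). In hippocampus the medians were 25.8, 15.4, 38.5 and 25.9 CPM in the same order of groups, and the interaction was -0.07 ± 0.87 (adjusted p = 1).

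L1Md_Gf_dup868 had lower cortex medians in treated mice of both genotypes, and no difference was called. It ranged from 0 to 55.5 CPM in WT-nt (median 28.1), from 0 to 33.1 in WT-t (median 8.69), from 0 to 44.7 in TS-nt (median 27.1) and from 0 to 29.1 in TS-t (median 14.9). The median counts were 10, 3, 7 and 5, so those of the treated groups were at or near the limit of 3 counts. The log2 fold change was -1.25 ± 0.72 in WT-t vs. WT-nt (unadjusted p = 0.0829, adjusted p = 0.999) and -0.88 ± 0.76 in TS-t vs. TS-nt (unadjusted p = 0.246, adjusted p = 1). In permutation the means of WT-t and WT-nt, 10.3 and 24.8 CPM, gave an exact p of 0.0329 (adjusted p = 0.566). In hippocampus this member did not pass the filter, and its medians were 16.9, 9.16, 6.09 and 11.5 CPM in the same order of groups. These were median counts of 4.5, 3, 1.5 and 4.

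**Figure D4:**
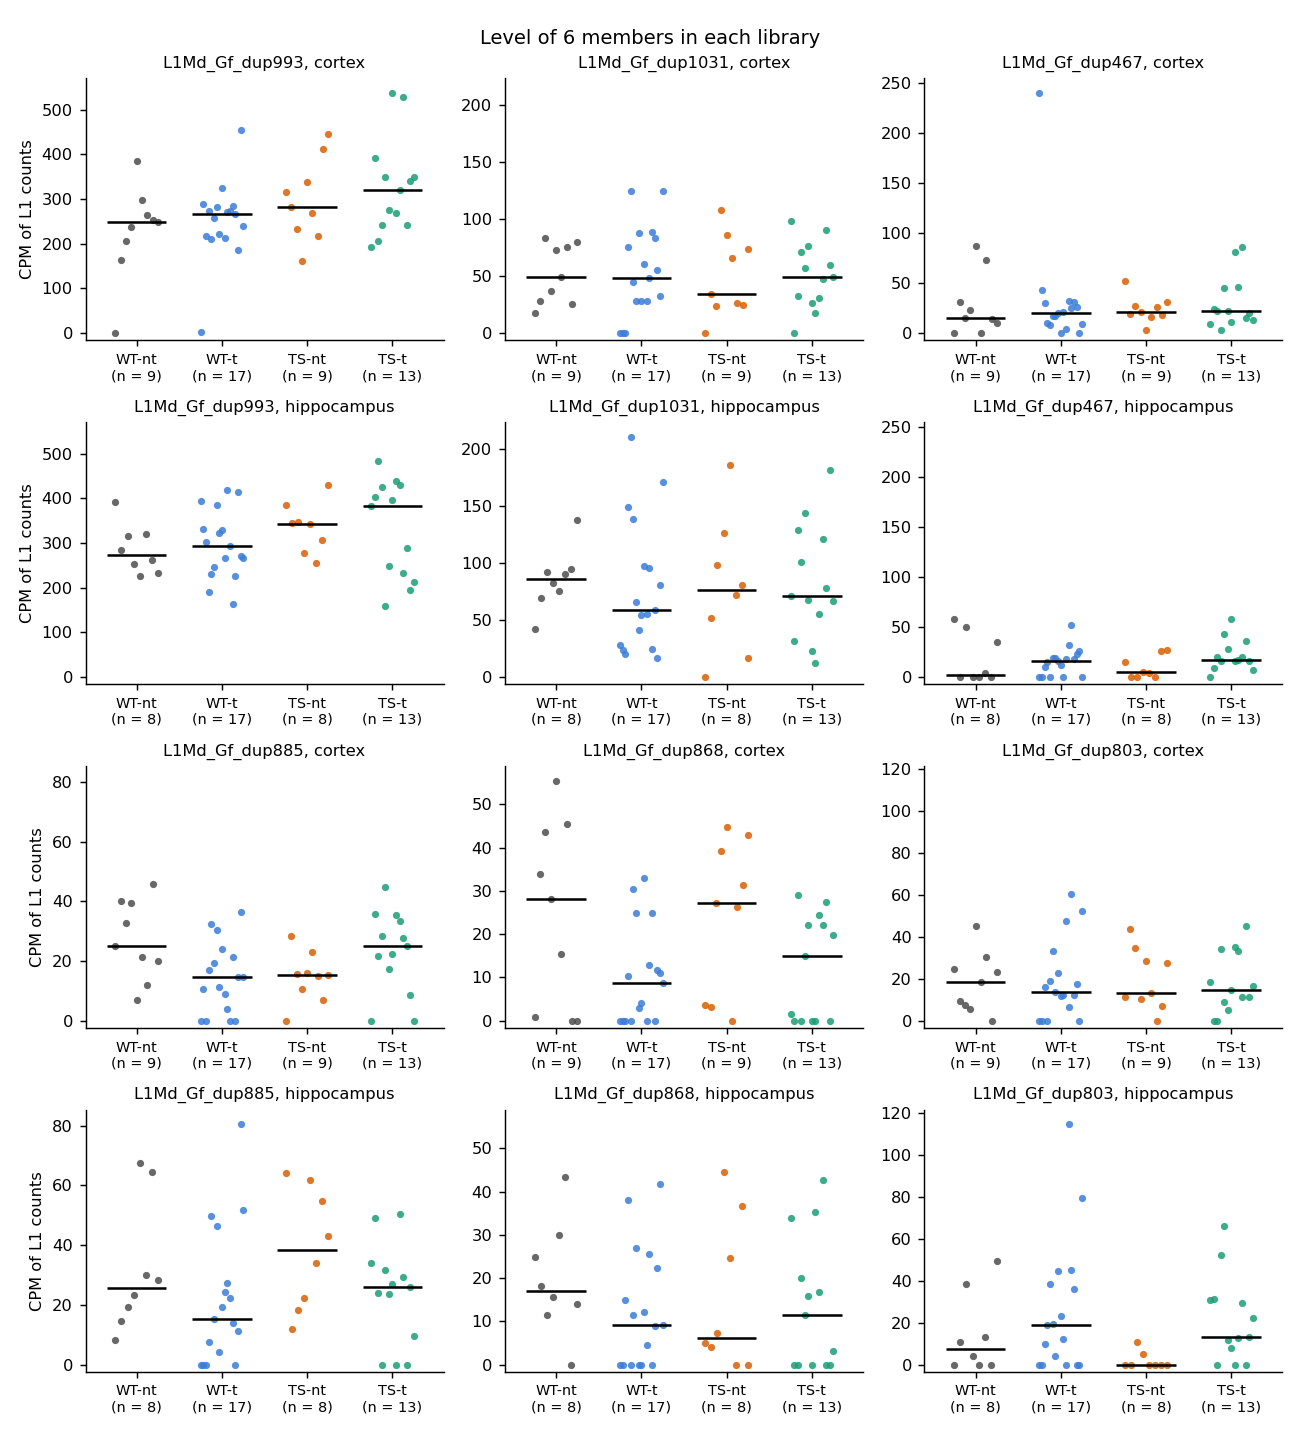
Level (y axis, CPM) of 6 members in each library by group, with cortex above hippocampus for each member and a line at the group median. All groups overlap for every member, L1Md_Gf_dup467 reaches 240 CPM in the cortex library of mouse 1, and L1Md_Gf_dup803 has a count in only 2 of 8 hippocampus TS-nt libraries.

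L1Md_Gf_dup803 and L1Md_Gf_dup1050 were absent from many libraries. In hippocampus L1Md_Gf_dup803 had a count in 5 of 8 WT-nt, 12 of 17 WT-t, 2 of 8 TS-nt and 10 of 13 TS-t libraries, with 32, 126, 5 and 81 counts in total. Its median there was 7.43 CPM in WT-nt, 19.1 in WT-t, 0 in TS-nt and 12.96 in TS-t, and it did not pass the filter. In cortex it had a count in 8 of 9, 13 of 17, 8 of 9 and 11 of 13 libraries, and the group medians were all between 13.1 and 18.4 CPM. L1Md_Gf_dup1050 had a count in 27 of 48 cortex and 25 of 46 hippocampus libraries. In hippocampus its median was 0 CPM in WT-nt (0 to 33.8), 13.9 in WT-t (0 to 72.9), 23.3 in TS-nt (0 to 51.4) and 3.84 in TS-t (0 to 103), and WT-t vs. WT-nt gave a log2 fold change of 1.86 ± 1.00 (unadjusted p = 0.0668, adjusted p = 1).

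Between tissues, the sum over the members was called, but it was not called without mouse 24, nor without TMM normalization when all libraries were kept. In the 46 mice with both tissues the sum was 944 ± 239 CPM in cortex and 889 ± 132 in hippocampus, and it was higher in cortex in 25 mice and lower in 21. The edgeR log2 fold change of cortex vs. hippocampus was 0.17 ± 0.07 (adjusted p = 0.0226), in a comparison in which 68.4% of 133 subfamilies were called, 36.1% higher in cortex and 32.3% lower. L1Md_A, L1Md_F, L1Md_F2, L1Md_F3 and L1Md_T were also called higher in cortex, with log2 fold changes of 0.20, 0.18, 0.16, 0.11 and 0.64. These fits did not pair the cortex and hippocampus libraries of a mouse. With the mouse as replicate block, L1Md_Gf gave 0.12 ± 0.06 (adjusted p = 0.0635). Without both libraries of mouse 24 the unpaired value for L1Md_Gf was 0.08 (adjusted p = 0.147), and it was no longer called. By group, cortex was higher in 5 of 8 WT-nt, 7 of 17 WT-t, 5 of 8 TS-nt and 8 of 13 TS-t mice. As these are bulk tissues, fewer cells of a type and less RNA per cell cannot be told apart.

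Of the 10 members tested between tissues, 1 was called, L1Md_Gf_dup467, where 21.7% of 7388 elements were called 11.7% higher in cortex and 9.99% lower. It had 450 counts in 44 of 48 cortex libraries and 203 in 33 of 46 hippocampus libraries, with medians of 20.5 and 15.9 CPM, and it was higher in cortex in 29 mice and lower in 16. Its log2 fold change was 0.89 ± 0.35 (adjusted p = 0.0602). The cortex library of mouse 1 alone held 77 of its counts (240 CPM), where the hippocampus library of that mouse had 0, and without both libraries of mouse 1 the value was 0.74 ± 0.34 (adjusted p = 0.114) and was no longer called. With the mouse as replicate block, where 23.1% of the elements were called, 3 of 10 members were called: L1Md_Gf_dup467 (log2 1.07 ± 0.44, adjusted p = 0.0733) and L1Md_Gf_dup803 (1.07 ± 0.45, adjusted p = 0.0869) higher in cortex and L1Md_Gf_dup1031 (-0.57 ± 0.23, adjusted p = 0.0623) lower. L1Md_Gf_dup1031 was lower in cortex in 34 of 46 mice, with means of 51.6 ± 33.2 CPM in cortex and 80.8 ± 50.5 in hippocampus. The means of L1Md_Gf_dup803 were close, at 18.8 ± 15.9 CPM in cortex and 18.6 ± 24.6 in hippocampus. This member was higher in cortex in 21 mice and lower in 19. In the unpaired edgeR fit it was not called (0.79 ± 0.37, adjusted p = 0.144). In that fit L1Md_Gf_dup993 gave -0.07 ± 0.14 (adjusted p = 0.787), and it was lower in cortex in 31 of 46 mice.

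L1Md_Gf_dup974 was not tested between tissues because it did not pass the filter, and it was among the first 10 members in cortex alone. It had 258 counts in 32 of 48 cortex libraries and 37 in 12 of 46 hippocampus libraries. The cortex library of mouse 1 held 55 of the 258 counts. In both tissues its median was within the limit of detection, at 7.68 CPM in cortex and 0 in hippocampus.

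Some members differed between mice in the same way in both tissues. L1Md_Gf_dup1050 had a count in both tissues in 21 of 46 mice and in neither in 16, and in only 1 of them in 9 mice, 5 in cortex and 4 in hippocampus. Its CPM in cortex and hippocampus had a Pearson r of 0.607 and a Spearman rho of 0.669 over the 46 mice (permutation p = 9e-05 and 2e-05, adjusted over 10 members 0.00045 and 0.0002), and r was 0.463 without the 2 mice farthest from the cortex median. Within mice of the same label, rho was 0.307 for 7 mice with label 18, 0.930 for 12 with label 19 and 0.575 for 27 with label 20. The permutations of all members exchanged mice across groups and labels, so differences between mice and between groups are not separated. For L1Md_Gf_dup1050 the mean was lowest in WT-nt in both tissues (4.71 CPM in cortex and 6.30 in hippocampus). Correlation within a group was not tested. L1Md_Gf_dup1031 had an r of 0.583 and a rho of 0.522 (permutation p = 2e-05 and 0.00027, adjusted 0.0002 and 0.00135), an r of 0.467 without the 2 farthest mice, and a rho of 0.852, -0.042 and 0.553 within labels 18, 19 and 20.

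The other 8 members tested did not pass at 0.05 after adjustment. At the threshold of 0.1 used for the fits, only the rho of L1Md_Gf_dup868 among them would pass. L1Md_Gf_dup868 came next, with an r of 0.306 and a rho of 0.343 (permutation p = 0.0387 and 0.0201, adjusted 0.129 and 0.067). The most abundant member, L1Md_Gf_dup993, had an r of -0.158 and a rho of -0.158 (permutation p = 0.297 and 0.295, adjusted 0.424 and 0.492). The values of the summed L1Md_Gf level, as a description, were an r of 0.144 and a rho of 0.314 over the 46 mice, and rho was 0.750, 0.343 and 0.117 within labels 18, 19 and 20. Without the 2 mice farthest from the cortex median, r was 0.273 and rho 0.315.

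**Figure D5:**
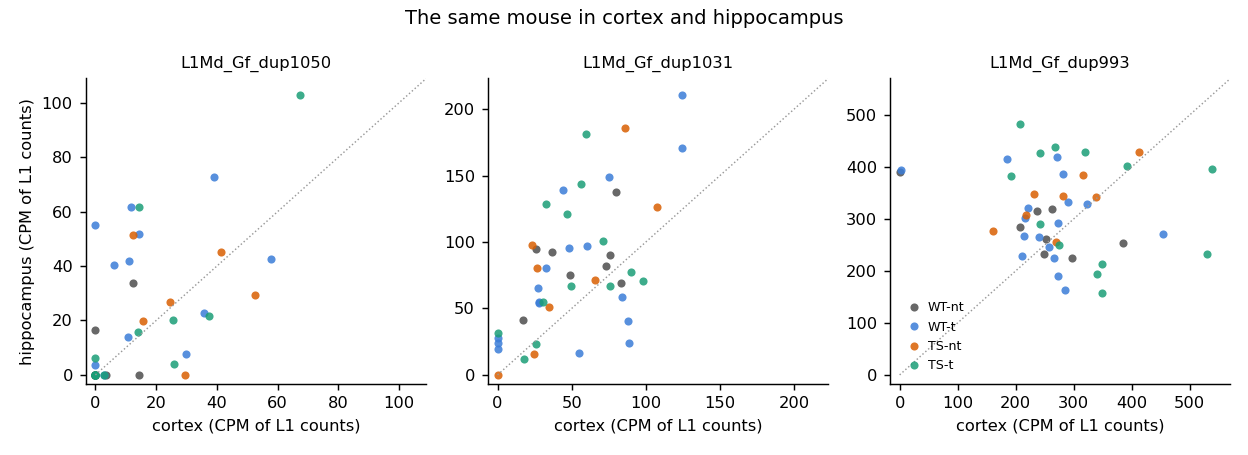
Level of 3 members in the cortex (x axis) and hippocampus (y axis) of the same 46 mice, in CPM, colored by group, with a dotted line of equal levels. Mice at 0 in both tissues overlap at the origin for L1Md_Gf_dup1050 (16 mice), and the mice at or near 0 in cortex with nearly 400 CPM in hippocampus for L1Md_Gf_dup993 are mouse 24 and mouse 1.

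The remaining members were described only by how their counts were spread over libraries. Of the 248 members with at least 10 counts in cortex, 104 (41.9%) had at least 50% of their counts in a single library, and for 78 of them this was the library of mouse 24. In hippocampus 13 of 127 (10.2%) had at least 50% in a single library, with at most 2 of them in the same mouse. The member with the largest share of its counts in 1 library, among those with at least 100 counts, was L1Md_Gf_dup343 in cortex, with 86 of 104 counts (82.7%) in mouse 24, and L1Md_Gf_dup803 in hippocampus, with 36 of 244 (14.8%) in mouse 16. Other members led by mouse 24 were L1Md_Gf_dup288, L1Md_Gf_dup605 and L1Md_Gf_dup990, with 63, 61 and 56 counts there and 19, 0 and 11 in the other 47 cortex libraries together. A typical cortex library had a count on 55.5 members (median; 16 to 220) and a typical hippocampus library on 39 (23 to 99).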

How the data were processed

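Ribosomal RNA-depleted total RNA of 48 cortex and 46 hippocampus libraries was analyzed from the raw counts deposited by the authors, who used Trimmomatic 0.38 for trimming, HISAT2 2.1.0 against GRCm38/mm10 (up to 5 alignments kept for a read) and Telescope to assign reads to L1 elements. The counts were not normalized. StringTie 2.1.3b was listed for genes, which were not used here. Whether Telescope used the strand is not given in the sources used here.

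Single elements, and sums over each subfamily (the name before _dup), were tested with edgeR 4.0.16 (limma 3.58.1, R 4.3.3). The steps were filterByExpr (minimum count 10, minimum total 15), TMM, estimateDisp and robust quasi-likelihood tests, with the 4 groups of a tissue in 1 model. Benjamini-Hochberg adjustment ran over all elements or all subfamilies of a comparison, with a threshold of 0.1. Tissues were compared in 46 mice as the mean of the 4 groups of each. Both libraries of a mouse carry the same animal label, which gives the pairing for the fit with a replicate block. Standard errors (SE) come from the fold change and its F statistic, and 95% intervals from the SE. Permutation tests on mean CPM were two-sided, exact where a group had fewer than 10 libraries and otherwise of 100000 permutations (scipy 1.17.1, numpy 2.4.6, pandas 2.3.3, Python 3.11.15). The fits were tested on simulated data.

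Alternatives were DESeq2 1.42.0, other normalizations, filters and thresholds, fits of the 2 groups alone, the sum without L1Md_Gf_dup993, each library left out in turn, libraries far on the first principal component left out (over 3 median absolute deviations), and only treated mice with label 20. Leaving out mouse 24 or mouse 1, and the correlations of single members across tissues, were added after the values were seen.

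Members named were the 10 with the highest mean CPM in each tissue, those called, the 2 with the smallest p-value in each comparison within a tissue, and the one with the largest share of its counts in 1 library. Some members led by mouse 24 were named outside this rule, with their values known. The members and lists were chosen with earlier results of these data known. A copy of the subfamily is not reported here. Each library was treated as 1 mouse, as labelled. The methods mention pools of 3 per condition before RNA was measured, and if libraries were pools the spread is that of pools.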

Additional observations from a re-analysis of the deposited data

Results flagged for a closer look

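Examined were 56 sets of values, each a single quantity in a group of 4 to 10 libraries. In 8 of these sets the highest library lay far from the rest. The number expected by chance, about 2.8, cannot be compared with the 8, because sets share libraries and some rest on few counts. The gap to the next library is large relative to the range of the group in each of the 8, and no cause was tested.

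In 3 of them the library was that of mouse 24 in cortex WT-nt. Its summed L1Md_Gf level was 2190 CPM, with 1300 CPM in the next library, and it had counts on 220 members, with 86 in the next. L1Md_Gf_dup343 was at 73.8 CPM in this library and at 6.63 CPM in the next.

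Mouse 27 had counts on 144 members in cortex and on 99 in hippocampus, with 65 and 45 in the next TS-nt libraries. These were also the TS-nt libraries with the most L1 counts, 763030 and 403378, and its summed levels were 991 and 1128 CPM.

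The other 3 were single members with few counts in hippocampus. L1Md_Gf_dup803 was at 10.9 CPM in mouse 26 (TS-nt, next 4.96), L1Md_Gf_dup1018 at 60.6 CPM in mouse 44 (WT-nt, next 20) and L1Md_Gf_dup974 at 11 CPM in mouse 34 (TS-nt, where all others were at 0). The values of mouse 26 and mouse 34 rest on 3 counts each.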

How the results depend on the processing

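The L1Md_Gf sum was called in no comparison within a tissue except with TMM factors of the single elements, where cortex WT-t vs. WT-nt was -0.74 (adjusted p = 0.0415). That setting was not run without mouse 24. In cortex, TS-nt and TS-t against WT-nt turned to 0.0483 and 0.14 without mouse 24, and to 0.0488 and 0.0568 without the libraries far on the first principal component (no hippocampus library was far). With treated mice of label 20 alone, lamivudine in TS mice turned to -0.0029 in cortex (-0.0043 without mouse 24, where TS-t against WT-nt was 0.0434) and -0.0812 in hippocampus, and in hippocampus lamivudine in WT mice turned to 0.27, genotype in treated mice to -0.24 and the interaction to -0.35. Leaving out each library in turn gave cortex values from -0.39 (without mouse 44) to 0.0483 (without mouse 24) for TS-nt and from -0.28 to 0.14 for TS-t against WT-nt (without the same mice), and from -0.0243 to 0.0438 for lamivudine in TS hippocampus (without mice 26 and 27). Between tissues the sum ranged from 0.0769 (without mouse 24) to 0.19 and was called in 45 of 46 fits. It was 0.12 (adjusted p = 0.0635) with the mouse as replicate block, 0.11 (adjusted p = 0.101) without TMM, 0.0467 (adjusted p = 0.383) without the libraries far on the first component and 0.0769 (adjusted p = 0.147) without both libraries of mouse 24.

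The number of members called depended on the filter on low counts. For genotype in non-treated mice, both factors together, lamivudine in TS mice, lamivudine in WT mice, genotype in treated mice and the interaction, 67, 78, 20, 87, 31 and 37 of 248 members were called in cortex with at least 10 counts in total, and 15, 17, 17, 16, 15 and 11 of 127 in hippocampus. With no filter these were 86, 107, 14, 111, 55 and 33 of 509 in cortex and 0, 18, 26, 17, 31 and 16 of 386 in hippocampus. Of all elements, in the same order, 20.8%, 25%, 6.86%, 22.8%, 13.5% and 9.05% were called in cortex with at least 10 counts. In hippocampus these shares were 14.5%, 13.5%, 13.4%, 12.7%, 10.6% and 12.1%. With no filter they were 13.5%, 18.4%, 2.98%, 16%, 13% and 4.07% in cortex. The hippocampus shares with no filter were 0%, 6.69%, 6.65%, 4.89%, 9.27% and 4.59%. At most 0.0708% were called in the edgeR fits reported within a tissue. In cortex 78 of the 248 members had at least 50% of their counts in mouse 24, and the cause was not tested. With an unadjusted p below 0.05 and a log2 change of at least 1.5, 1 of 8 members was called in the cortex interaction, and 0.923% of all elements. Between tissues 1 of 10 members was called as reported (21.7% of all elements), 3 with the replicate block (23.1%), 2 with DESeq2 (31.5%), 33 of 308 with at least 10 counts (12.8%), 0 without both libraries of mouse 1 (24.4%) and 0 at an adjusted p below 0.05 (17%). The replicate block changed no other call of the members or their sum. Depth limits single members: the median library had 299.5 L1Md_Gf counts in cortex and 230.5 in hippocampus.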
